A study of Mus musculus with 24 samples.

Results

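Distal lung RNA from 6 mice given bleomycin (BLM) together with EXT5 (BLM+EXT5 mice) was compared with that of 6 saline controls, across all genes on the array. The 12 arrays were chosen by their sample titles from the 24 of the series, which also holds 6 BLM mice and 6 BLM mice given another compound, EXT9. All mice were female C57BL/6 animals aged 12.5 weeks. BLM+EXT5 mice received bleomycin s.c. at 50 IE per dose, 3 doses a week for 2 weeks, with EXT5 p.o. daily at 30 mg/kg from the first dose. BLM mice received the same bleomycin with vehicle p.o. (Tween80, 2.5% w/v), and saline controls received physiological saline s.c. with the same vehicle. The comparison therefore holds bleomycin and EXT5 at once. No group received EXT5 without bleomycin, so the part of each agent cannot be told apart from these 12 arrays, and the level in BLM mice is given beside the main values. Levels in the mice given EXT9 are not given. A systemic bleomycin course of this length is an early model of pulmonary fibrosis, and the RNA came from cut pieces of distal lung, a mixture of many cell types.

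Bleomycin breaks DNA strands. In damaged cells the transcription factor p53 is stabilised and switches on Cdkn1a, whose product p21 holds the cell cycle, along with other target genes. EXT5 is an antagonist of the 5-HT2B receptor, through which serotonin acts on fibroblasts, smooth muscle and other cells. In fibrotic lung, fibroblasts deposit collagens and other matrix proteins, alveolar type 2 cells multiply and replace lost type 1 cells, and macrophages accumulate.

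Levels are log2 of the quantile normalised signal intensity on Illumina bead arrays, and differences are BLM+EXT5 minus saline on that scale unless another pair is named. The sorted values of the arrays fell into 2 sets, one of 6 arrays (saline 1, 3 and 5 and BLM 2, 3 and 5) with a median signal of 110.3 and one of 18 arrays (all others) with a median of 103.3. The BLM+EXT5 mice all lay in the larger set. Each difference is therefore given for all arrays (6 against 6) and for the arrays of the larger set only (6 BLM+EXT5 mice against saline 2, 4 and 6), called here the same-set comparison. A gene was called when limma gave a Benjamini-Hochberg adjusted p under 0.05, and the account leads with genes called in the same direction in both comparisons. Within groups, the mean correlation of an array with its fellows was 0.987 to 0.991 in BLM+EXT5 mice and 0.973 to 0.987 in saline controls, with saline 6 lowest. Saline 6 stood apart, with low levels of ciliated, smooth muscle and club cell genes and high levels of alveolar type 1 genes, and BLM+EXT5 3 had high levels of club cell, cardiac muscle, adipocyte and smooth muscle genes. List counts that move with saline 6 are given with and without it, and those of the club, cardiac muscle, adipocyte and smooth muscle genes also without BLM+EXT5 3. The tissue label was borne out by Sftpc (surfactant protein C, of alveolar type 2 cells), at 14.11 to 14.30 in BLM+EXT5 mice and 13.73 to 14.63 in saline controls, and by Scgb1a1 (club cell secretoglobin), at 13.79 to 14.18 and 14.18 to 14.62 in those groups.

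Of 22344 probes tested, 768 were higher (3.44%) and 2524 lower (11.3%) in BLM+EXT5 mice over all arrays. In the same-set comparison 503 were higher (2.25%) and 377 lower (1.69%). Called in both comparisons were 339 higher (1.52%) and 372 lower (1.66%). Counted by gene, with the brightest probe of each of 11877 named genes, 242 were higher (2.04%) and 243 lower (2.05%) in both, and 524 higher (4.41%) and 1591 lower (13.4%) over all arrays. The 6 BLM+EXT5 mice all lay above the 6 saline controls for 183 of the 11877 genes (1.54%), and all below them for 302 (2.54%). The large share of lower calls over all arrays moved with the scaling. Higher calls made up 23.3% of the total as deposited, 46.4% after joint quantile normalisation of the 24 arrays, 40.2% after median centring and 48.6% with the array set as a block. The median difference of all probes was -0.05 over all arrays and 0.00 in the same-set comparison. Without saline 6 the calls in both comparisons numbered 2051 in place of 711, and 653 of the 711 were among them. The 2051 were 692 higher and 1359 lower of 22344 probes. The list counts without saline 6 given below stand beside this rise over all probes. With saline 2 left out they numbered 84 and with saline 4 left out 136. Each of these settings leaves 2 saline controls in the same-set comparison, and the cause of the moves was not tested. Of 114 genes followed through the settings, 73 by the naming rule and 41 chosen after their values were seen, 93 were called in both comparisons. Of these, 24 kept the call under each of 15 settings, with single arrays left out, the scaling changed or the array set as a block. The filter, the groups fitted, the trended robust fit, the replicate block and the displaced rows were not varied in them. Where saline 1, 3 or 5 was left out, or the array set was a block, the same-set call was that of the main fit. Napsa, Arntl, Mcm5 and Zfp365, among the 24, were called in 17 of all 18 same-set settings. Without saline 2 the call was lost for 68 of the 93, without saline 4 for 64 and without saline 6 for 5. Of the 114, 50 had several probes, which all gave the call for 15 genes and had opposite signs for 5. Igfbp2, Tk1, Fdps, Ifit3, Cxcl16, Chil3 and Col6a1, among others, were called in both comparisons by their brightest probe and not by a further one.

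**Figure D1:**
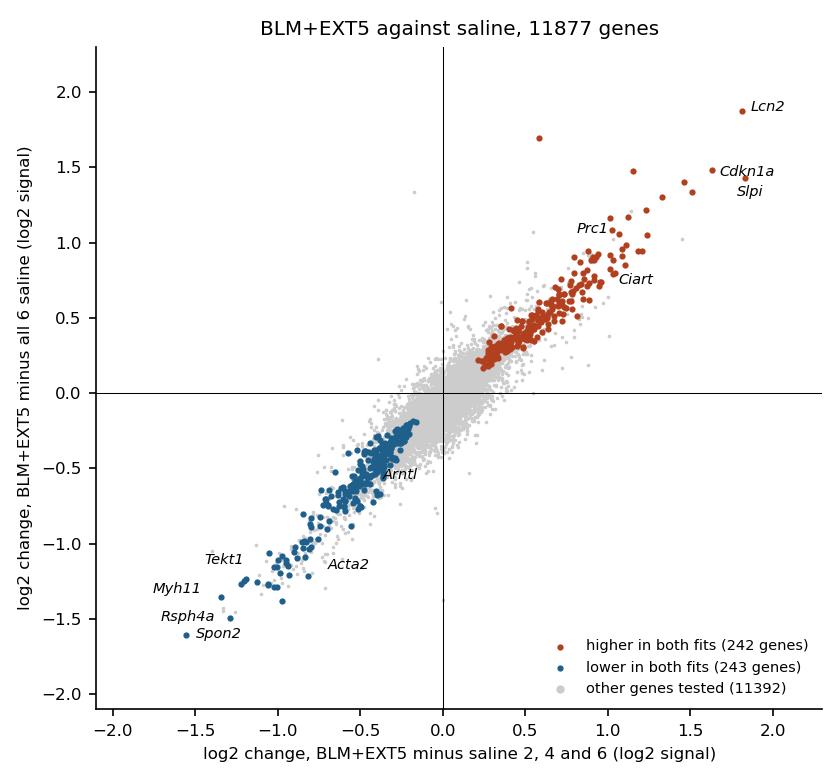
Difference between BLM+EXT5 mice and saline controls for 11877 genes, with the same-set comparison (6 BLM+EXT5 mice against saline 2, 4 and 6) plotted against all arrays (6 against 6), both in log2 units. Each point is a gene, and the 242 genes higher and 243 lower in both comparisons are coloured and lie along the diagonal on both sides of 0.

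Genes switched on by p53 were among the genes with no overlap between groups. Of 20 measured p53 target genes, 6 were higher in both comparisons and none was lower in both, against 2.04% and 2.05% of all genes. The median difference of the 20 was 0.11 over all arrays and 0.15 in the same-set comparison, beside -0.06 and 0.00 for all genes. Cdkn1a lay at 10.65 to 10.99 in BLM+EXT5 mice (median 10.76), at 10.54 to 11.07 in BLM mice (median 10.82) and at 8.997 to 9.63 in saline controls (median 9.31). Every BLM+EXT5 mouse was above every saline control, and both bleomycin groups covered the same range. The difference was 1.49 ± 0.13 over all arrays (SE, limma adjusted p = 3.1e-07, 2.80-fold) and 1.63 ± 0.16 in the same-set comparison (adjusted p = 4.4e-05, 3.10-fold). Phlda3, an inhibitor of Akt signalling, lay at 9.42 to 9.80 in BLM+EXT5 mice (median 9.70) and at 8.64 to 8.87 in saline controls (median 8.79). These groups did not overlap either, with differences of 0.89 ± 0.07 and 0.90 ± 0.07 (limma adjusted p = 1.5e-07 and 9e-06). Ccng1, which encodes cyclin G1, lay at 10.68 to 11.21 in BLM+EXT5 mice and at 9.83 to 10.31 in saline controls, and its 3 probes were all called in both comparisons. Zfp365, Gtse1 and Zmat3 were higher by 0.33 to 0.56 over all arrays, although 1 of 3 probes of Zfp365 gave -0.07, and the Zmat3 call was lost without saline 2, saline 4 or any of 5 BLM+EXT5 mice. Without saline 6, 7 of the 20 were higher and 1 lower in both comparisons. Mdm2, the p53 target that degrades p53, went the other way over all arrays, at 9.90 to 10.17 in BLM+EXT5 mice and 9.97 to 10.63 in saline controls (-0.39 ± 0.10, limma adjusted p = 0.0088), and was not called in the same-set comparison (-0.22, adjusted p = 0.34).

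Genes of cell division were higher. Of 24 measured genes of mitosis and cytokinesis, 12 were higher in both comparisons and none was lower, and BLM+EXT5 mice and saline controls did not overlap for 12 of the 24. Of all 11877 genes, 2.04% were higher in both, and 1.54% had all BLM+EXT5 mice above all saline controls. The median of the list was 0.29 over all arrays and 0.36 in the same-set comparison. Prc1, which bundles the microtubules of the dividing spindle, lay at 8.86 to 9.45 in BLM+EXT5 mice (median 9.10), at 8.54 to 8.96 in BLM mice (median 8.75) and at 7.83 to 8.32 in saline controls (median 8.24). The BLM+EXT5 mice all lay above the saline controls, by 0.99 ± 0.10 over all arrays (limma adjusted p = 2.6e-06, 1.98-fold) and 1.11 ± 0.13 in the same-set comparison (adjusted p = 0.00028, 2.16-fold). Pbk, a mitotic kinase, lay at 7.68 to 7.91 in BLM+EXT5 mice and at 6.97 to 7.30 in saline controls (0.62 ± 0.09 and 0.70 ± 0.11, limma adjusted p = 0.00014 and 0.0034). Diaph3, a formin that builds actin filaments, lay at 7.50 to 7.70 in BLM+EXT5 mice and at 6.95 to 7.23 in saline controls (0.49 ± 0.05 and 0.54 ± 0.07, limma adjusted p = 8.4e-06 and 0.00041). Both genes were thus separated without overlap, as was Bub1b, a kinase of the spindle checkpoint (7.79 to 8.10 in BLM+EXT5 mice and 7.20 to 7.60 in saline controls). Cdc20 and Plk1, which drive cells through mitosis, and Birc5, Cdca8 and Aurka, of the chromosomal passenger and spindle machinery, rose by 0.28 to 0.61 over all arrays. Prc1, Pbk, Diaph3, Bub1b and Kntc1, a kinetochore protein, kept their calls whichever array was left out. Second probes of Bub1b and Cdca8 were not called. A Birc5 probe and a Cdc20 probe (0.01 and 0.07) were called in neither comparison, and another Cdc20 probe over all arrays only. Of the list, 5 genes were still called without saline 2, 7 without saline 4 and 13 without saline 6.

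The genes of DNA replication and nucleotide synthesis leaned the same way. All 27 measured members had a positive difference in each comparison, as had 3923 of the 11877 genes over all arrays and 6044 in the same-set comparison. Of the 27, 10 were called higher in both and none lower, beside 2.04% and 2.05% of all genes. The list medians were 0.20 over all arrays and 0.30 in the same-set comparison. Uhrf1, which carries DNA methylation through replication, lay at 8.51 to 9.03 in BLM+EXT5 mice (median 8.90) and at 7.65 to 8.48 in saline controls (median 8.15). The ranges did not overlap, and the difference was 0.71 ± 0.14 over all arrays and 0.95 ± 0.15 in the same-set comparison (limma adjusted p = 0.0013 and 0.0042). Ctps, which makes CTP, lay at 10.01 to 10.40 in BLM+EXT5 mice and at 8.99 to 9.77 in saline controls (0.80 ± 0.12 and 0.85 ± 0.16, limma adjusted p = 0.00019 and 0.0094). Mcm5, a subunit of the replicative helicase, lay at 8.71 to 9.56 in BLM+EXT5 mice and at 8.20 to 8.68 in saline controls. Neither of these 2 genes overlapped between the groups. Rrm1, the large subunit of ribonucleotide reductase, lay at 8.37 to 8.63 in BLM+EXT5 mice and at 7.99 to 8.18 in saline controls, and both of its probes were called in both comparisons. Tk1 (thymidine kinase), E2f1 (a transcription factor of the G1 to S step), Fen1, Mcm2, Chaf1b and Cdc6 completed the calls, at 0.23 to 0.50 over all arrays. Of the 27, 4 were called in both comparisons without saline 2, 5 without saline 4 and 11 without saline 6, and Mcm5, Tk1, Uhrf1 and E2f1 were called in each of these cases.

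The promoters of the members of these 2 lists were searched for letters that cell cycle genes are known to carry. The windows run from 250 bases before to 50 bases after each gene's start (RefSeq, GRCm38.p6), and 27025 genes had one. A gene with several starts was counted if any of its windows held the motif. TTTGAA, the core of the cell cycle homology element, stood on either strand in 18 of 21 mitosis genes with a promoter (85.7%), against 20.2% of all promoters. CCAAT stood in 16 of these 21 (76.2%), against 41.1% of all. TTCCCGC, a form of the E2F motif, stood in 9 of 23 replication genes (39.1%), against 5.29% of all. Among called members the shares were 8 of 11 for TTTGAA, 8 of 11 for CCAAT and 4 of 10 for TTCCCGC. Called members did not hold TTTGAA or CCAAT more often than their whole list. The list shares follow from which genes are on the lists, not from their levels here. These are matches of letters, and no binding was measured. None of the 3 motifs holds another within it. The 250 bases before the start of 4 called genes show how they lie, with each match of the 3 motifs in capitals. For Prc1 a later start than the first listed was shown, picked for its motif matches. In Prc1 CCAAT begins 62 bases and TTTGAA 30 bases before the start (chr7:80294226-80294475, plus strand), and in Cdc20 CCAAT begins 53 and 8 bases and TTTGAA 18 bases before it (chr4:118437344-118437593, minus strand). In Rrm1 TTCCCGC begins 67 bases before the start, with CCAAT at 91 and 45 bases (chr7:102441445-102441694, plus strand), and in Uhrf1 TTCCCGC begins 48 and CCAAT 30 bases before it (chr17:56303087-56303336, plus strand).
Prc1: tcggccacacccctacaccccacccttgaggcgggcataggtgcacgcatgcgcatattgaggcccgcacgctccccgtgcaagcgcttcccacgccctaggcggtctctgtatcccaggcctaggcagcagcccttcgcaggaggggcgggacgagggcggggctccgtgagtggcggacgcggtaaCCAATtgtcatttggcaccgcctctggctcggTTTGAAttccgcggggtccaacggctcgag
Cdc20: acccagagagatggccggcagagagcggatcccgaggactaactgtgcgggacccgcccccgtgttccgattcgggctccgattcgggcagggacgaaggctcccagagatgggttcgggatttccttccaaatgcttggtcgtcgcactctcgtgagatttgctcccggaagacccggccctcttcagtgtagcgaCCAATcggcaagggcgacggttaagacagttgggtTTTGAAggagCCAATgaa
Rrm1: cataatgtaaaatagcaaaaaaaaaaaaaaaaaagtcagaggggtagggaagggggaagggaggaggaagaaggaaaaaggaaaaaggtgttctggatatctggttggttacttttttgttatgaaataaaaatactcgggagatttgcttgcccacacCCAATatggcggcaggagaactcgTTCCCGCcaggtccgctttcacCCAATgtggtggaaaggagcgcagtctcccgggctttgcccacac
Uhrf1: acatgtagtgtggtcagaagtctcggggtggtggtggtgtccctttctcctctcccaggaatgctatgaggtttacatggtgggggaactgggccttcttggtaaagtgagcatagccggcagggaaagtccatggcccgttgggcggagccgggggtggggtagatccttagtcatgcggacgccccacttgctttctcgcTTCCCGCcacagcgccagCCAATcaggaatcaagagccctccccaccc

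Alveolar type 1 genes were among the lists with the most higher calls. Of 15 measured members, all had a positive difference in both comparisons and 7 were called higher in both, with list medians of 0.55 and 0.60. Of all 11877 genes, 3923 over all arrays and 6044 in the same-set comparison had a positive difference, and 2.04% were called higher in both. In bulk tissue more cells of a type and more RNA per cell cannot be told apart. Igfbp2, a binding protein of insulin-like growth factors, lay at 10.62 to 11.02 in BLM+EXT5 mice (median 10.83), at 10.60 to 11.02 in BLM mice (median 10.83) and at 9.48 to 10.13 in saline controls (median 9.91). The saline controls all lay below both bleomycin groups, which coincided. The difference was 0.91 ± 0.12 over all arrays and 1.09 ± 0.14 in the same-set comparison (limma adjusted p = 6.1e-05 and 0.00067). Spock2, a secreted proteoglycan, lay at 9.94 to 10.52 in BLM+EXT5 mice (median 10.26) and at 8.20 to 9.79 in saline controls (median 9.27), where saline 2 was lowest and saline 6 highest. Its differences were 1.05 ± 0.18 and 1.24 ± 0.23 (limma adjusted p = 0.00061 and 0.01), and without saline 6 the same-set value was 1.63. Aqp5, the water channel of type 1 cells, lay at 12.27 to 12.58 in BLM+EXT5 mice and at 11.44 to 12.12 in saline controls, with differences of 0.57 ± 0.10 and 0.74 ± 0.11. Pdpn (podoplanin, of the type 1 cell membrane) and Gprc5a (a receptor induced by retinoic acid) also separated the groups without overlap. Ager and Cldn18, the receptor for advanced glycation end products and a tight junction protein, were called too, with BLM+EXT5 mice overlapping the highest saline controls. The list mean of saline 6 was 11.07, the highest of the controls, and without this array 12 of the 15 genes were called in both comparisons with a same-set median of 0.89. Without saline 2 or saline 4, 3 of the 15 were, and without single BLM+EXT5 mice 5 to 7. Igfbp2, Aqp5 and Gprc5a kept their calls in each of the 15 settings, and Ager and Cldn18 lost theirs in 5 and 7 of them.

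Alveolar type 2 genes showed a mixed picture, with 3 of 15 measured genes higher in both comparisons, beside 2.04% of all genes. The list medians were 0.45 and 0.52. Napsa, the protease that processes surfactant protein B, lay at 13.23 to 13.74 in BLM+EXT5 mice (median 13.39), at 12.29 to 13.04 in BLM mice (median 12.55) and at 11.68 to 12.92 in saline controls (median 12.05). Here the BLM+EXT5 mice lay above every BLM mouse and every saline control. The difference from saline was 1.22 ± 0.17 over all arrays and 1.24 ± 0.20 in the same-set comparison (limma adjusted p = 9.7e-05 and 0.004, 2.33-fold and 2.35-fold), and its 3 probes were called in both. Il33, an alarmin cytokine held in the nucleus, lay at 9.96 to 10.27 in BLM+EXT5 mice and at 8.92 to 9.91 in saline controls, which did not overlap (0.71 ± 0.17 and 0.88 ± 0.20, limma adjusted p = 0.0055 and 0.024). Sftpa1 (surfactant protein A) rose by 0.46 ± 0.15 and 0.64 ± 0.15, with overlap at 12.79 to 13.24 in BLM+EXT5 mice and 11.89 to 12.89 in saline controls. Etv5, a transcription factor needed to keep type 2 cells, was higher over all arrays (0.87 ± 0.19, limma adjusted p = 0.0036) and missed the threshold in the same-set comparison (0.91 ± 0.25, adjusted p = 0.0505), where it was 1.41 without saline 6. The 3 probes of Lyz1, a lysozyme of type 2 cells, disagreed, the brightest at -0.42 and the others at 0.77 and 1.76 over all arrays, and Lyz1 and Lyz2 are near-identical copies whose transcripts such probes may share. Sftpc, the defining gene of the list, differed by -0.06 ± 0.13 and 0.24 ± 0.09 and was called in neither comparison. Without saline 6, 7 of the 15 genes were higher and 1 lower in both comparisons, and without saline 2 or saline 4, 1 was higher. Napsa kept its call in each of the 15 settings, Il33 lost it without saline 2 or saline 4, and Sftpa1 lost it in 7 settings, among them 4 of the single BLM+EXT5 mice. The saline 6 array was the highest control for Napsa, Il33 and Etv5.

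**Figure D2:**
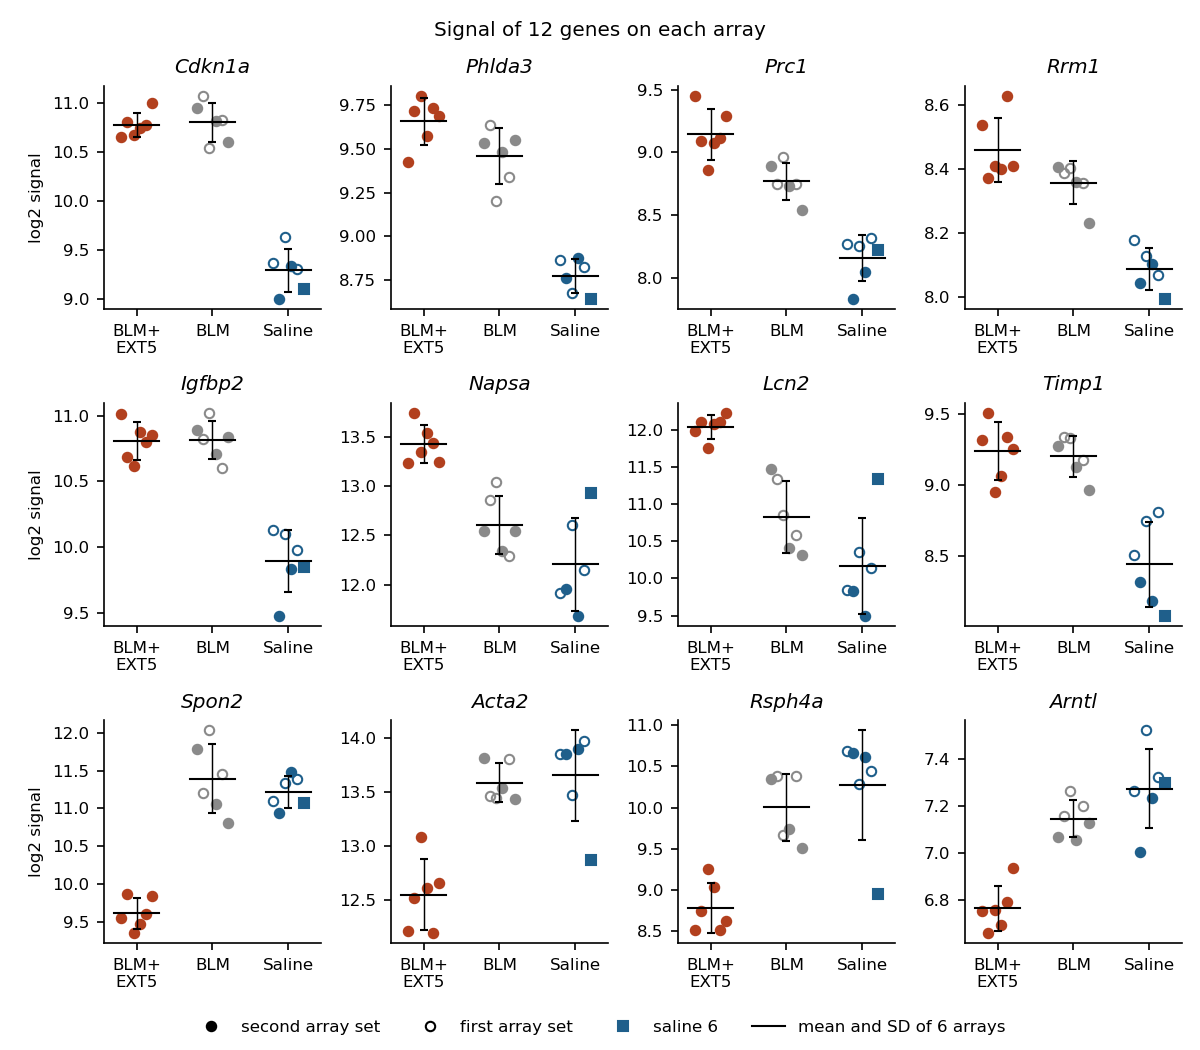
Log2 signal intensity of 12 genes in each array, with BLM+EXT5 mice on the left, BLM mice in the middle and saline controls on the right of each panel. Bars give mean and SD, open circles mark arrays of the smaller set and the square is saline 6. For Cdkn1a, Phlda3, Prc1 and Igfbp2 all BLM+EXT5 mice lie above all saline controls, for Spon2 and Arntl all lie below them, and for Rsph4a and Acta2 saline 6 lies near the BLM+EXT5 mice.

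Single genes of secreted defence proteins and of macrophages were higher, while most members of their lists were not called. Of 9 measured neutrophil and antimicrobial genes 1, Lcn2, was higher in both comparisons, beside 2.04% of all genes. The list medians were 0.32 and 0.21. Without saline 6, 2 of the 9 were, and without saline 2 or saline 4 none. Lcn2, lipocalin 2, which binds bacterial iron carriers, lay at 11.75 to 12.22 in BLM+EXT5 mice (median 12.09), at 10.31 to 11.47 in BLM mice (median 10.71) and at 9.50 to 11.34 in saline controls (median 9.99). The BLM+EXT5 mice lay above all BLM mice and all saline controls, and saline 6 was the highest control by a clear step. The difference was 1.87 ± 0.24 over all arrays and 1.82 ± 0.32 in the same-set comparison (limma adjusted p = 6.1e-05 and 0.007, 3.66-fold and 3.52-fold). Slpi, the secretory leukocyte protease inhibitor, rose by 1.43 ± 0.38 and 1.83 ± 0.46 (limma adjusted p = 0.013 and 0.036), with overlap at 11.16 to 11.91 in BLM+EXT5 mice and 8.33 to 11.40 in saline controls. The Slpi call was lost in 7 of the 15 settings, without saline 2, saline 4 or any of 5 BLM+EXT5 mice. Of 15 measured macrophage genes, 2 were higher in both comparisons, beside 2.04% of all genes, with medians of 0.32 and 0.41. Their list mean lay at 9.05 to 9.24 in BLM+EXT5 mice, at 8.63 to 9.39 in BLM mice and at 8.49 to 8.98 in saline controls. Ccl6, a chemokine of macrophages, lay at 8.44 to 8.93 in BLM+EXT5 mice and at 7.02 to 8.34 in saline controls (1.17 ± 0.22 and 1.12 ± 0.25, limma adjusted p = 0.001 and 0.023). Chil3, a chitinase-like protein of alternatively activated mouse macrophages, lay at 12.10 to 12.78 in BLM+EXT5 mice and at 10.47 to 12.32 in saline controls. The first of these separated the groups and the second did not, and the Chil3 call was lost in 6 of the 15 settings. Clec4n, the fungal lectin receptor dectin-2, lay at 8.76 to 9.73 in BLM+EXT5 mice and at 7.32 to 8.62 in saline controls, without overlap (1.41 ± 0.24 and 1.46 ± 0.27, limma adjusted p = 0.00049 and 0.0087). Fpr2 (a formyl peptide receptor), Chil4 and Ear10 were also called higher in both, at 0.95 to 1.34 over all arrays, and each lost its call without saline 2, without saline 4 and without 5 or more of the single BLM+EXT5 mice. Lcn2, Ccl6 and Clec4n lost their calls without saline 2 or saline 4. Chil3 and Chil4, like Ear10 and its relatives, are close copies whose probes may share transcripts. Mrc1 and Lyz2, abundant macrophage genes, were higher over all arrays (0.92 ± 0.21 and 0.91 ± 0.21, limma adjusted p = 0.0037 and 0.0044) and not called in the same-set comparison (adjusted p = 0.053 and 0.072). The dimmer probes of Lyz2 were called in the same-set comparison (0.69 and 0.93, limma adjusted p = 0.0054 and 0.00057) and not over all arrays (adjusted p = 0.40 and 0.054). Saline 6 had 14.34 for Lyz2, above 5 of the 6 BLM+EXT5 mice, and without it 6 of the 15 macrophage genes were higher and 1 lower in both comparisons. Without saline 2 or saline 4, none of the 15 was. The neutrophil calprotectin gene S100a8 was not called (1.07, limma adjusted p = 0.085 over all arrays), and saline 6 stood at 11.11 against 8.18 to 8.97 in the other controls.

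Most matrix genes, the readout of fibrosis, were not called in both comparisons. Of 33 measured collagens and other matrix genes, 4 were higher and 1 was lower in both, beside 2.04% and 2.05% of all genes. The list medians were 0.01 and 0.15. Spon2, a secreted spondin of the matrix, lay at 9.35 to 9.86 in BLM+EXT5 mice (median 9.57), at 10.81 to 12.04 in BLM mice (median 11.33) and at 10.94 to 11.48 in saline controls (median 11.22). The BLM+EXT5 mice lay more than a full log2 unit below the median of either group, with no overlap. The difference from saline was -1.61 ± 0.16 over all arrays and -1.55 ± 0.19 in the same-set comparison (limma adjusted p = 2.5e-06 and 0.00041, 3.05-fold and 2.94-fold lower), and that from BLM mice, which shares the BLM+EXT5 arrays, was -1.78. Timp1, the inhibitor of matrix metalloproteinases, lay at 8.95 to 9.51 in BLM+EXT5 mice (median 9.29), at 8.97 to 9.34 in BLM mice (median 9.22) and at 8.08 to 8.81 in saline controls (median 8.41). It rose by 0.80 ± 0.14 and 1.05 ± 0.17 (limma adjusted p = 0.00073 and 0.0042), with no overlap between BLM+EXT5 mice and saline controls. Mmp2, a gelatinase, lay at 11.47 to 12.26 in BLM+EXT5 mice and at 10.92 to 11.37 in saline controls, also without overlap (0.61 ± 0.13 and 0.72 ± 0.16). The collagen VI genes Col6a1 and Col6a2 were higher by 0.40 ± 0.11 and 0.30 ± 0.10 over all arrays, though other probes of both genes were not called in both comparisons. Sparc, a collagen-binding glycoprotein, was higher by 0.64 ± 0.12 over all arrays and not called in the same-set comparison (limma adjusted p = 0.069). Another of its 3 probes was called in the same-set comparison and not over all arrays (0.95 and 0.40, limma adjusted p = 0.00061 and 0.25), and the third in neither. Col1a1, the main fibrillar collagen of scar tissue, lay at 8.83 to 10.35 in BLM+EXT5 mice and at 9.002 to 9.58 in saline controls and was not called (0.20 ± 0.17, limma adjusted p = 0.45). Col3a1 differed by 0.24 ± 0.26 over all arrays and by 0.78 ± 0.20 in the same-set comparison (limma adjusted p = 0.58 and 0.041), with saline 1, 3 and 5 at 9.12 to 9.19 and saline 2, 4 and 6 at 7.95 to 8.14. Without saline 2 or saline 4, 1 of the 33 matrix genes was higher and 1 lower in both comparisons, and Spon2 and Timp1 kept their calls in each of the 15 settings. Mmp2 lost its call without saline 2 or saline 4, Col6a1 in 5 settings and Col6a2 in 10, single BLM+EXT5 mice among them. Without saline 6, 6 matrix genes were higher and 2 lower in both comparisons.

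Of 19 genes of TGF-beta signalling, the main fibrogenic pathway of the lung, 1 was called higher in both comparisons, beside 2.04% of all genes. This was Itgb6, a subunit of the epithelial integrin that releases active TGF-beta from its latent form, at 9.98 to 10.72 in BLM+EXT5 mice and 9.13 to 10.21 in saline controls (0.62 ± 0.13 and 0.66 ± 0.18, limma adjusted p = 0.0021 and 0.046). Of its 3 probes 1 was called in both comparisons, and this call was lost in 7 of the 15 settings, without saline 2, saline 4 or any of 5 BLM+EXT5 mice. Without saline 6, 3 genes of the list were higher and 1 lower in both. Tgfb1 itself differed by 0.36 ± 0.09 and 0.36 ± 0.13 (limma adjusted p = 0.0081 and 0.12). Ltbp4, which anchors latent TGF-beta in the matrix, lay at 11.04 to 11.56 in BLM+EXT5 mice and at 11.50 to 12.27 in saline controls (-0.66 ± 0.12 and -0.47 ± 0.15, limma adjusted p = 0.00081 and 0.08). These ranges touched only through saline 4, the lowest control. A second of the 3 Ltbp4 probes was called lower in both comparisons (-0.62 and -0.53, limma adjusted p = 0.00022 and 0.013). The third was called over all arrays only (-0.27 and -0.22, limma adjusted p = 0.017 and 0.18). The list medians were 0.12 and 0.19.

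Contractile genes of smooth muscle were lower. All 16 measured members had a negative difference in each comparison, where 3923 of the 11877 genes over all arrays and 6044 in the same-set comparison had a positive one. Of the 16, 7 were called lower in both and none higher, beside 2.05% and 2.04% of all genes. The list medians were -0.46 over all arrays and -0.51 in the same-set comparison. Acta2, smooth muscle actin, lay at 12.19 to 13.09 in BLM+EXT5 mice (median 12.56), at 13.43 to 13.82 in BLM mice (median 13.50) and at 12.87 to 13.97 in saline controls (median 13.85). Of the saline controls, 5 lay at 13.48 to 13.97 and saline 6 at 12.87, so that the overlap with BLM+EXT5 mice came from saline 6 alone. The difference was -1.11 ± 0.16 over all arrays and -0.997 ± 0.21 in the same-set comparison (limma adjusted p = 0.00016 and 0.018, 2.16-fold and 2.00-fold lower), and the 4 probes of the gene were all called in both. Myh11, the myosin heavy chain of smooth muscle, lay at 8.21 to 9.31 in BLM+EXT5 mice (median 8.36), at 9.30 to 9.87 in BLM mice (median 9.55) and at 8.68 to 10.41 in saline controls (median 10.03). Its overlap too was between saline 6 and BLM+EXT5 3. It fell by 1.36 and 1.34 in the 2 comparisons (limma adjusted p = 0.00045 and 0.025). Myl9 (a myosin light chain), Lmod1 (leiomodin), Des (desmin), Mylk (the kinase of myosin light chains) and Myocd (the coactivator that switches on this programme) were the other calls. Mylk, at 12.13 to 12.49 in BLM+EXT5 mice and 12.54 to 12.87 in saline controls, and Myocd, at 7.02 to 7.24 and 7.25 to 8.05, separated the groups, though 1 of 3 Myocd probes did not move (-0.01) and its call in both comparisons was lost after joint quantile normalisation or median centring. Outside the list Aoc3, a vascular adhesion amine oxidase, and Pcp4l1 were called lower in both (-1.24 ± 0.24 and -1.27 ± 0.21 over all arrays). The list mean of saline 6 was 9.24, against 9.77 to 10.04 in the other controls. Without it, 12 of the 16 genes were lower in both comparisons, with a same-set median of -0.74, and without saline 2 or saline 4 none was. Without BLM+EXT5 3, 8 were, and without the other single BLM+EXT5 mice 5 or 6. Acta2, Myh11, Myl9 and Lmod1 lost their calls without saline 2 or saline 4, and Des in 7 settings. The CArG box, a run of A and T between CC and GG, was also searched in the promoter windows. It stood in 1 of 12 smooth muscle genes with a promoter (8.33%), against 1.81% of all promoters, and in 1 of 5 called members, Myl9.

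Neighbouring cell lists moved less. Of 14 fibroblast and pericyte genes, 5 were lower over all arrays, where 13.4% of all genes were, a share that moved with the scaling. None was lower in both comparisons. Pdgfra, the receptor that marks lung fibroblasts, lay at 10.77 to 11.52 in BLM+EXT5 mice and 11.21 to 12.10 in saline controls (-0.70 ± 0.17, limma adjusted p = 0.0055 over all arrays, and 0.11 in the same-set comparison). Of 23 cardiac muscle genes, which pulmonary veins carry in mice, 1 was lower in both, beside 2.05% of all genes. This was Jph2, junctophilin 2, at 7.12 to 7.33 in BLM+EXT5 mice, 7.33 to 7.63 in BLM mice and 7.63 to 7.91 in saline controls (-0.54 ± 0.06 and -0.48 ± 0.07, limma adjusted p = 1.7e-05 and 0.0013). Its 3 groups followed in that order with no overlap beyond shared end values, while a second probe gave 0.02 over all arrays. Actc1, cardiac actin, was lower over all arrays (-1.43 ± 0.29, limma adjusted p = 0.0019) and not in the same-set comparison (-1.33 ± 0.40, adjusted p = 0.068). Without BLM+EXT5 3, 2 cardiac genes were lower in both comparisons, and without saline 6, 3 were lower and 1 was higher. Jph2 kept its call in each of the 15 settings. Without saline 6, 2 fibroblast and pericyte genes were lower in both. The cardiac list mean ran from 7.29 to 8.15 in BLM+EXT5 mice and from 7.33 to 8.70 in saline controls. The part of tissue sampling in these values was not tested.

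Genes of ciliated airway cells were lower. Over all arrays 19 of 21 measured genes were called lower, in the same-set comparison 7, and these 7 in both, with none higher. Of all 11877 genes 13.4% were lower over all arrays, a share that moved with the scaling, and 2.05% in both. The list medians were -0.70 and -0.60. Rsph4a, a radial spoke protein of motile cilia, lay at 8.51 to 9.26 in BLM+EXT5 mice (median 8.69), at 9.52 to 10.38 in BLM mice (median 10.04) and at 8.95 to 10.69 in saline controls (median 10.53). Saline 6 stood at 8.95, inside the range of BLM+EXT5 mice, and the other 5 controls at 10.29 to 10.69, above all of them. The difference was -1.49 ± 0.23 over all arrays and -1.29 ± 0.29 in the same-set comparison (limma adjusted p = 0.00028 and 0.025, 2.81-fold and 2.45-fold lower), and -1.85 in the same-set comparison without saline 6. Tekt1, a tektin filament of the axoneme, lay at 8.14 to 9.19 in BLM+EXT5 mice and at 8.86 to 10.39 in saline controls (-1.25 ± 0.20 and -1.13 ± 0.28, limma adjusted p = 0.00039 and 0.033). Dnaic1, an outer dynein arm chain whose loss in people causes primary ciliary dyskinesia, fell by 1.03 and 0.85. Rsph1, Ak7 and Iqcg, of the axoneme, and Rfx2, a transcription factor of ciliogenesis, were the other calls in both. Saline 6 was the lowest control for every one of these 7. Foxj1, the factor that commits cells to motile cilia, lay at 6.94 to 7.30 in BLM+EXT5 mice and at 6.97 to 7.54 in saline controls and missed the threshold (-0.24 ± 0.08, limma adjusted p = 0.0505). Outside the list Cfap161, Maats1, Dnaaf1 and Iqca, also known from motile cilia, were called lower in both by 1.06 to 1.29 over all arrays, the brightest of 3 Dnaaf1 probes carrying that call. The ciliated list mean was 7.87 to 8.35 in BLM+EXT5 mice, 8.40 to 8.92 in BLM mice and 8.90 to 9.14 in saline controls other than saline 6, which had 8.07. Without saline 6, 19 of the 21 genes were lower in both comparisons, with a same-set median of -0.81. Without saline 2 or saline 4 none was. Without any one of BLM+EXT5 1, 2, 4, 5 or 6, 1 or 2 genes were, and without BLM+EXT5 3, 6 were. Over all arrays alone, Rsph4a, Tekt1 and Dnaic1 were called in each of the 22 settings run.

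RFX factors, among them Rfx2, bind a sequence that contains GTTGCC, and 11 of 17 ciliated genes with a promoter held it on either strand (64.7%), against 14.1% of all promoters. Of the called members, Tekt1, Iqcg and Rfx2 held it, 3 of 5. In the 250 bases before the start of Tekt1 (chr11:72361883-72362132, minus strand) the letters stand once on each strand, GGCAAC beginning 35 and GTTGCC 15 bases before the start, and are in capitals. The list share follows from which genes are on the list, not from their levels here. The match is of letters and no binding was measured.
Tekt1: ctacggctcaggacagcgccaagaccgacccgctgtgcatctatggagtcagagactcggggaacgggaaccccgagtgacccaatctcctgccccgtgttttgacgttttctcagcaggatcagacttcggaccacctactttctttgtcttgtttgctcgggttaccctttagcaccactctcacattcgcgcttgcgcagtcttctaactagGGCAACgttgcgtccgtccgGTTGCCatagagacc

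Club cell genes showed 5 of 10 lower over all arrays, where 13.4% of all genes were, and none in both comparisons, with medians of -0.50 and -0.25. Without saline 6, 4 of the 10 were lower in both, and without BLM+EXT5 3, 1 was. Scgb1a1 differed by -0.33 ± 0.08 over all arrays (limma adjusted p = 0.0078) and by -0.20 ± 0.08 in the same-set comparison (adjusted p = 0.15). Gabrp, a GABA receptor subunit of airway epithelium, lay at 9.41 to 10.50 in BLM+EXT5 mice and 9.65 to 11.47 in saline controls (-1.11 ± 0.21 and -1.07 ± 0.30, limma adjusted p = 0.0012 and 0.055). The list mean was 12.26 in BLM+EXT5 3 and 10.93 to 11.10 in the other BLM+EXT5 mice, and 10.87 in saline 6. The amount of airway in each tissue piece was not measured, and its part in the ciliated, club and smooth muscle values was not tested.

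**Figure D3:**
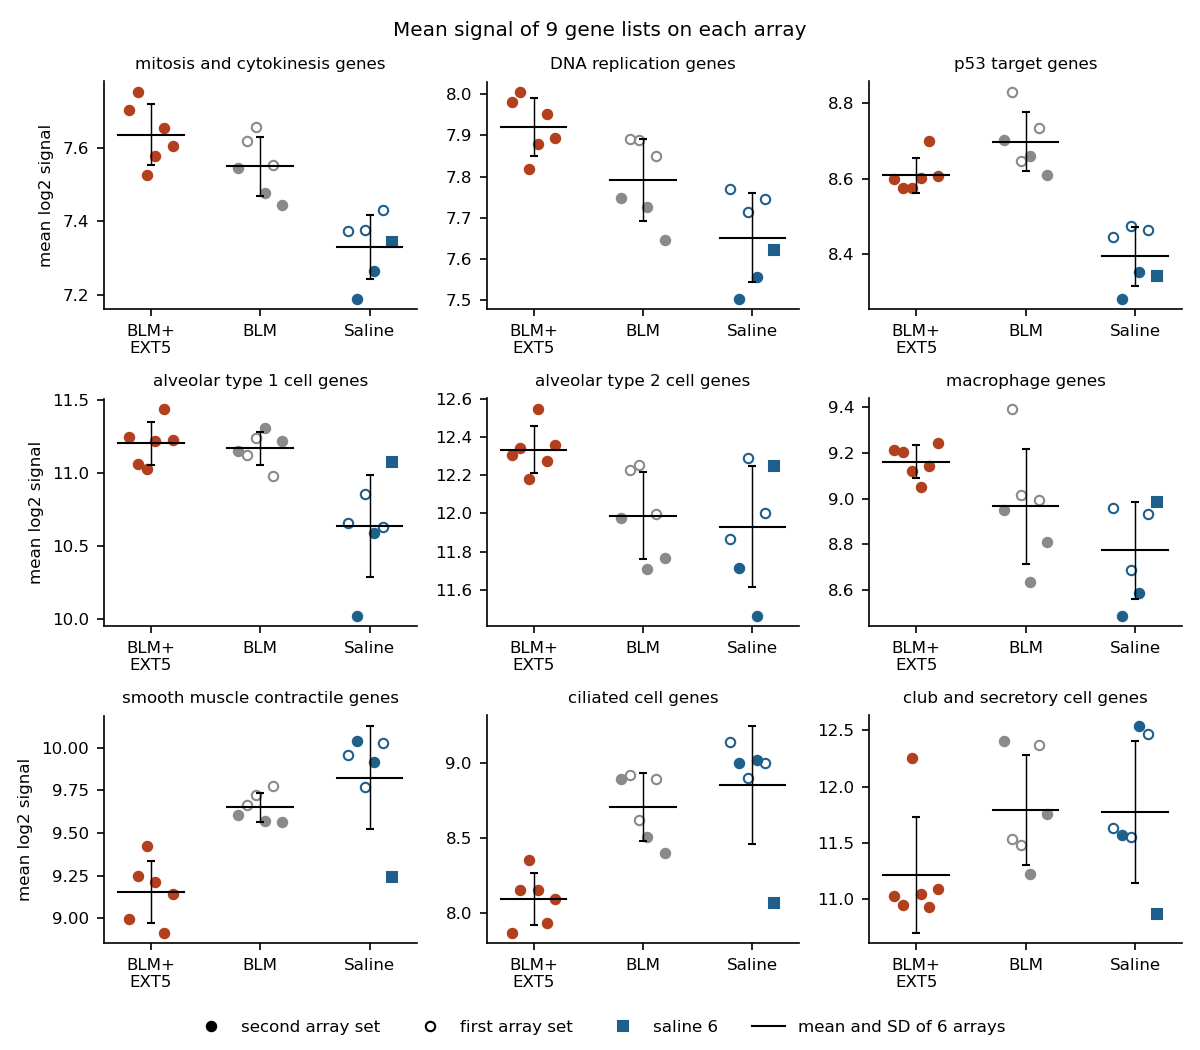
Mean log2 intensity over the measured genes of 9 lists in each array, for BLM+EXT5 mice, BLM mice and saline controls from left to right. Bars give mean and SD, open circles the smaller array set and the square saline 6. For the ciliated and smooth muscle lists saline 6, at 8.07 and 9.24, lies in the range of the BLM+EXT5 mice. For the mitosis, replication, p53 and macrophage lists all BLM+EXT5 mice lie above all saline controls.

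Clock genes gave calls in opposite directions. Arntl, which encodes BMAL1, the activator at the centre of the circadian clock, lay at 6.66 to 6.93 in BLM+EXT5 mice (median 6.76), at 7.05 to 7.26 in BLM mice (median 7.14) and at 7.00 to 7.52 in saline controls (median 7.28). The BLM+EXT5 mice lay below all BLM mice and all saline controls, with differences from saline of -0.51 ± 0.06 and -0.41 ± 0.07 (limma adjusted p = 4.6e-05 and 0.0045). Their Arntl levels were at the low end of the measured range, near the filter bound of 6.70. Ciart, a repressor of the clock, lay at 7.84 to 8.16 in BLM+EXT5 mice (median 7.94), at 7.14 to 7.60 in BLM mice (median 7.36) and at 6.76 to 7.56 in saline controls (median 7.20). It was higher by 0.82 ± 0.12 and 1.01 ± 0.12 (limma adjusted p = 0.00011 and 0.00045) with no overlap. Per2, a repressor in the same loop, was higher by 0.63 ± 0.17 and 0.85 ± 0.21, and its call was lost without saline 6, which at 8.14 was the lowest control (same-set difference 0.51, adjusted p = 0.096), and likewise without saline 4 or BLM+EXT5 1, 4, 5 or 6. Dbp, an output gene of the clock, rose by 0.37 ± 0.13 and 0.57 ± 0.15 (limma adjusted p = 0.048 and 0.042) and lost its call in 9 of the 15 settings, among them without saline 6 (adjusted p = 0.072 over all arrays). In all, 3 of 14 clock genes were higher and 1 lower in both comparisons, beside 2.04% and 2.05% of all genes. Without saline 4, saline 6 or any one of BLM+EXT5 1, 4, 5 and 6, 1 was higher. Arntl and Ciart kept their calls in each of the 15 settings. The time of day at which each animal was killed is not given in the sources used here, and its part was not tested.

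Of 15 glucocorticoid response genes, 1 was called higher in both comparisons, beside 2.04% of all genes. Zbtb16, a zinc finger gene induced by glucocorticoids, lay at 7.51 to 8.37 in BLM+EXT5 mice, at 6.94 to 7.81 in BLM mice and at 6.82 to 7.22 in saline controls (0.91 ± 0.15 and 0.91 ± 0.19, limma adjusted p = 0.00051 and 0.018). The groups did not overlap, and the call was lost without saline 2 or saline 4. Fkbp5, another such gene, also lay above all controls, at 7.31 to 7.73 in BLM+EXT5 mice and 6.94 to 7.16 in saline controls, and was called over all arrays and not in the same-set comparison (0.46 ± 0.11 and 0.51 ± 0.15, limma adjusted p = 0.0066 and 0.061). The list medians were 0.01 and 0.13.

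Other lists had at most 2 members called in both comparisons, where 2.04% of all genes were higher and 2.05% lower. Of 10 MHC class II genes, H2-DMb1, a chain of the peptide loader, was higher at 10.17 to 10.52 in BLM+EXT5 mice, 9.57 to 10.12 in BLM mice and 9.72 to 10.24 in saline controls (0.44 ± 0.09 and 0.54 ± 0.09, limma adjusted p = 0.0018 and 0.0048), with 5 of the 6 BLM+EXT5 mice above all controls. Without saline 6, 4 of the 10 were higher in both. Of 20 genes of cholesterol and fatty acid synthesis, Fdps and Mvd, enzymes of the mevalonate pathway, were higher by 0.61 ± 0.11 and 0.29 ± 0.07 over all arrays. Cxcl16 was the 1 call among 23 chemokines and cytokines, at 9.73 to 10.05 in BLM+EXT5 mice and 9.17 to 9.70 in saline controls, which did not overlap (0.49 ± 0.10 and 0.62 ± 0.11). A second Cxcl16 probe was called in neither comparison (0.02 and 0.20). Ifit3 was the 1 call among 19 interferon response genes (0.57 ± 0.10 over all arrays), and Alas2, the first enzyme of heme synthesis in red cell precursors, among 9 erythroid genes (1.48 ± 0.27 over all arrays). Among 15 heat shock genes Cryab, a small chaperone of muscle and epithelium, was higher in both (0.60 ± 0.15 over all arrays), while Hsph1, a partner of HSP70, was lower over all arrays (-0.68 ± 0.16, limma adjusted p = 0.006) and not called in the same-set comparison (-0.46, adjusted p = 0.23). Rps27l, a p53-inducible ribosomal protein gene, rose by 0.31 ± 0.06 and separated the groups, and Rpl30 fell by 0.39, out of 55 ribosomal protein genes. Of 64 respiratory chain genes, Ndufb6 was the 1 call. Lamb3, a laminin chain of epithelial basement membranes and a member of no list, was higher at 9.99 to 10.55 in BLM+EXT5 mice and 8.61 to 10.02 in saline controls (0.96 ± 0.17 and 1.09 ± 0.20, limma adjusted p = 0.0006 and 0.0082). Without saline 6, 4 genes of cholesterol and fatty acid synthesis were higher and 1 lower in both comparisons, 3 erythroid genes were higher, 2 chemokines and cytokines were higher and 1 lower, 1 interferon response gene was higher and 1 lower, 1 heat shock gene was higher and 2 lower, and 1 ribosomal protein and 1 respiratory chain gene were lower, with none higher. Over all 22344 probes, leaving out saline 6 gave 692 higher and 1359 lower calls in both, against 339 and 372 with it. Without BLM+EXT5 3 the interferon, erythroid, heat shock and respiratory chain lists had no member called in both. Of these genes H2-DMb1 alone kept its call whichever array was left out.

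The target of EXT5, Htr2b, was at the low end of the measured range, at 6.60 to 6.80 in BLM+EXT5 mice, 6.76 to 6.90 in BLM mice and 6.57 to 6.86 in saline controls. Its difference from saline was -0.05 ± 0.05 and -0.01 ± 0.07 (limma adjusted p = 0.59 and 0.96). Of 11 genes for serotonin receptors, synthesis, uptake and breakdown, 5 passed the filter on dim probes and none was called. Lists of B, T and NK cells, endothelium, mesothelium, adipocytes, immediate early genes, ER stress and targets of the aryl hydrocarbon receptor and NRF2 had no member called in both comparisons. Without saline 6, 3 aryl hydrocarbon receptor and NRF2 targets, 1 adipocyte gene and 1 ER stress gene were lower in both, and 1 T cell, 1 mesothelial and 1 immediate early gene higher. Without BLM+EXT5 3, 1 immediate early gene was higher and no adipocyte gene was called. Over all arrays 4 of 15 T cell genes and 4 of 13 aryl hydrocarbon receptor and NRF2 targets were lower, beside 1591 of 11877 genes in all (13.4%).

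**Figure D4:**
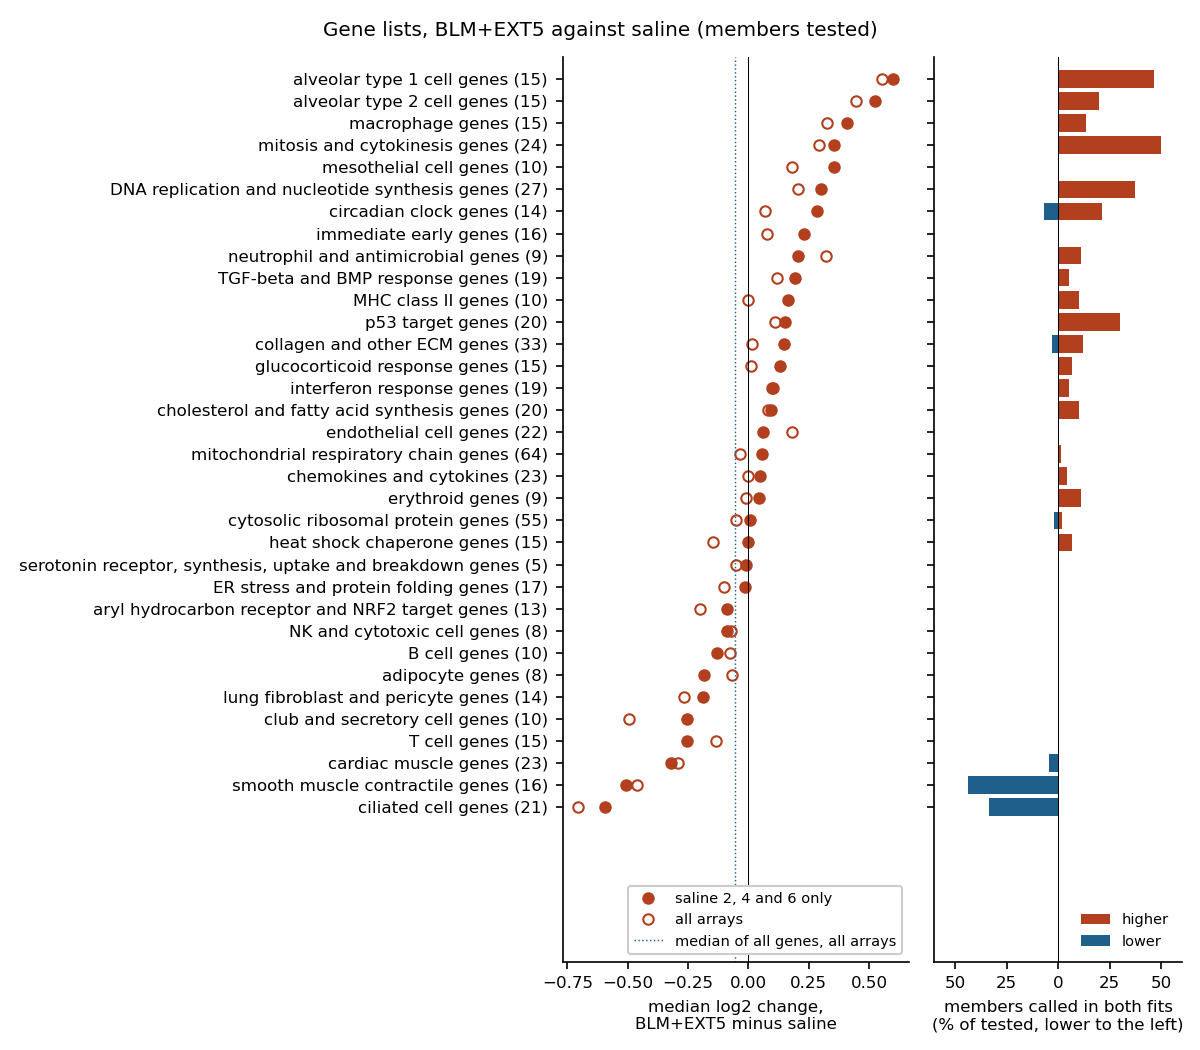
The 34 gene lists, with the median log2 difference of their measured genes over all arrays and in the same-set comparison on the left and the percentage of measured genes called in both comparisons, higher or lower, on the right. Mitosis genes (12 of 24) and alveolar type 1 genes (7 of 15) have the highest shares of higher calls, smooth muscle (7 of 16) and ciliated cell genes (7 of 21) the highest shares of lower calls, against 2.04% and 2.05% of all genes.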

How the data were processed

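Total RNA from distal lung was hybridised to Illumina MouseWG-6 v2 chips, 1 array per mouse, in 2 array runs. Which mice shared a run is not given in the sources used here, and the 2 array sets were inferred from the sorted values. The values deposited by the authors are signal intensity on a linear scale, quantile normalised within each set. The software and background correction are not given in the sources used here. The other 48 value columns of the series carry names that match no sample and were not used.

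Values were taken as log2 with a pseudocount of 0. In 3 stretches of consecutive rows (592 probes with 326 named genes, Vim, Vcan and Vwf among them) the values of the 2 sets did not correspond (correlation between sets of -0.16, -0.15 and 0.00 inside them), and these rows were left out. Of 45281 probes, 34885 had 1 gene symbol, 18 several and 10378 none. The 50% of probes with the higher mean were tested (22344, above 6.70 on the log2 scale), of which 18678 had 1 symbol. Group means were fitted with limma 3.58.1 (R 4.3.3) on all 24 arrays, and on the 18 arrays of the larger set, with Benjamini-Hochberg adjustment over all probes. Because the groups were separate mice and no pairing is stated, no block was used. The number of arrays limits the precision. The fit was tested on simulated data with known changes. The simulated noise was independent for each probe, with no shift between array sets and no outlying array. It therefore cannot speak to the moves seen when single arrays were left out. A gene is given by its brightest probe. Named were the 15 highest and 15 lowest genes of the same-set comparison among those called in both, up to 3 genes of each of 34 lists by the smallest p over all arrays, and Cdkn1a. The rule gave 121 genes, of which 73 were followed through the alternatives, together with 41 others chosen after their values were seen. Of 796 listed genes, 629 were tested. The members and lists were chosen with earlier results of these data known. Alternatives were the scaling, the filter, the arrays fitted, a trended robust fit, blocks for array set and replicate number, the displaced rows, and each array left out. Figures were drawn with matplotlib 3.10.9.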

Additional observations from a re-analysis of the deposited data

Results flagged for a closer look

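Within a group of 6, single arrays lay far from the other 5 in 31 of 296 sets of values examined. Chance gives about 1 in 20 for independent sets. These were not independent, since list means and genes of the same lists were both examined, and 41 genes were chosen after their values were seen. The count is therefore a description. Saline 6 accounted for 19 of the 31. It was the lowest control in the mean of the ciliated cell list (8.07, next 8.90), the smooth muscle list (9.24, next 9.77) and the aryl hydrocarbon receptor and NRF2 list (8.34, next 8.80). Among ciliated genes it was the lowest control for Rsph4a (8.95), Tekt1 (8.86), Rsph1 (10.33), Ak7 (7.07), Iqcg (6.69), Dnaaf1 (8.34), Cfap161 (8.56) and Maats1 (8.39). It was also lowest for Des (9.69), Col1a1 (9.002), Stmnd1 (7.89), Kndc1 (8.82), Iyd (8.28), Gabrp (9.65) and Hsph1 (9.22), and highest for the neutrophil gene S100a8 (11.11, next 8.97).

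BLM+EXT5 3 was the highest of its group, apart from the other 5, in the means of the adipocyte (8.32), cardiac muscle (8.15) and club cell lists (12.26) and in Myh11 (9.31), Aoc3 (8.97), Pcp4l1 (10.68) and Ak7 (7.22). BLM+EXT5 4 stood apart with the lowest chemokine and cytokine list mean (7.72) and the highest Sftpa1 level (13.24), and BLM+EXT5 5 with the highest p53 target list mean (8.70). Saline 4 stood apart with the highest adipocyte list mean (8.36) and the lowest Pdgfra level (11.21). The part of tissue sampling in these values was not tested.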

How the results depend on the processing

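Over all arrays the number of called probes (3292) ranged from 2365 to 4499 when single arrays were left out and was within 1.5 times of it in each other alternative run. The same-set comparison gave 880 calls, against 509 with no filter on dim probes, 118 when only the arrays of the groups compared were fitted, and 111 (without saline 2) to 2593 (without saline 6) when single arrays were left out. Calls in both comparisons numbered 711, against 401 with no filter, 96 with only the groups compared, and 84 (without saline 2) to 2051 (without saline 6) with single arrays left out. The cause was not tested. Same-numbered mice did not deviate together (correlations of -0.33 to -0.05 over 6 pairs, and 0 BLM+EXT5 arrays matched best with their own number), so the numbers were not read as pairs. With the replicate number as a block, 3212 probes were called over all arrays, 250 in the same-set comparison and 208 in both, 185 of them shared with the 711. With the 5 displaced stretches left out, an alternative chosen after seeing the data, 709 were called in both. For the 114 genes followed over all arrays, 1331 of 1368 results with single arrays left out kept their direction and side of the threshold, and 1002 of 1026 under the other settings. In the same-set comparison 695 of 1026 and 739 of 912 did. Htr2b, which was called nowhere, changed sign in the same-set comparison without BLM+EXT5 2, BLM+EXT5 4 or saline 4, its difference running from -0.079 to 0.066 over single arrays left out.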

Other observations

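Genes of the histone H2A clusters, a family in no list and examined after its values were seen, were higher in BLM+EXT5 mice. Of 13 measured H2ac genes, 9 were higher in both comparisons (13 of 20 probes), without overlap with saline controls for these 9. The median difference of the 13 genes was 0.60 over all arrays and 0.74 in the same-set comparison. H2ac22 lay at 10.20 to 10.95 in BLM+EXT5 mice (median 10.43), at 9.66 to 10.64 in BLM mice (median 10.05) and at 9.03 to 10.16 in saline controls (median 9.60), and was higher by 0.85 ± 0.17 and 1.11 ± 0.15 (limma adjusted p = 0.0017 and 0.0013). The H2ac genes are near-identical copies, and their probes may measure the same transcripts. Of 9 H2bc, 11 H4c and 3 H1f genes none was called in both, and of 7 H3c genes H3c4 and H3c7 were.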
